A study of Mus musculus with 6 samples.

Results

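Besides the insulin of beta cells, the pancreatic islet makes glucagon (Gcg) in alpha cells, somatostatin (Sst) in delta cells, pancreatic polypeptide (Ppy) in gamma cells and ghrelin (Ghrl) in epsilon cells, and several of these cells also make peptide YY (Pyy). The 8 genes described here are these 5 hormone genes and 3 genes of homeobox transcription factors found in the same cells, Irx1 and Irx2 of alpha cells and Hhex of delta cells. They were taken by name from the 35527 genes to which the reads were summed. All 8 had enough reads to be tested, as did 15805 genes in all.

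Glucagon raises blood glucose, somatostatin restrains the release of both insulin and glucagon, and ghrelin acts on appetite and on insulin release. Epsilon cells are a feature of the fetal and newborn islet and become rare in the adult. Pancreatic polypeptide and peptide YY belong to the neuropeptide Y family. Hhex is needed to keep delta cells as they are, and Irx1 and Irx2 belong to the Iroquois family of homeobox genes.

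RNA was sequenced from the whole pancreas of C57BL/6 mice aged 1 day, with 1 library per donor mouse. The wild-type group (WT) held 3 libraries and the group labelled KO, genotype miR216a-/-, held 3. The sources used here do not say how the miR216a-/- allele was made, whether it is lost in every tissue, or the sex, litter and batch of the mice. The p-values measure the spread between these libraries, and litter or batch may be part of it.

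Depth ran from 20565387 to 23028718 estimated reads. The transcripts quantified included 0 of the Mir216a gene, so the genotypes rest on the labels. Libraries also differed in ways that did not follow genotype. Erythroid markers summed to 5940 CPM in WT 1 and 4787 CPM in KO 2, against 1705 to 2836 CPM in the other 4 libraries, where CPM is the read count divided by library size, here with TMM scaling between libraries. Liver markers summed to 501 CPM in WT 1 and to 13.7 to 38.0 CPM elsewhere, and Y-linked genes to 3.82 CPM in KO 1 and 147 to 194 CPM elsewhere. Pancreas being a mixed tissue, fewer cells of a type and less RNA per cell cannot be told apart in any of these values.

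The order of the levels was nearly the same in every mouse. Levels of different genes are compared here as TPM, in which reads are divided by transcript length before each library is scaled to the same total. Over all 6 libraries Gcg averaged 2163 ± 482.5 TPM (SD, n = 6), below the insulin genes Ins2 (10983 ± 2256) and Ins1 (2856 ± 627) and above Iapp, the beta cell peptide amylin (968 ± 142). Pyy followed with 837.5 ± 202 TPM, Sst with 288 ± 72.1, Ppy with 177 ± 43.5 and Ghrl with 147 ± 28.5 TPM. The regulators were far lower, with Hhex at 24.3 ± 2.14, Irx2 at 7.96 ± 2.58 and Irx1 at 3.66 ± 0.983 TPM.

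**Figure D1:**
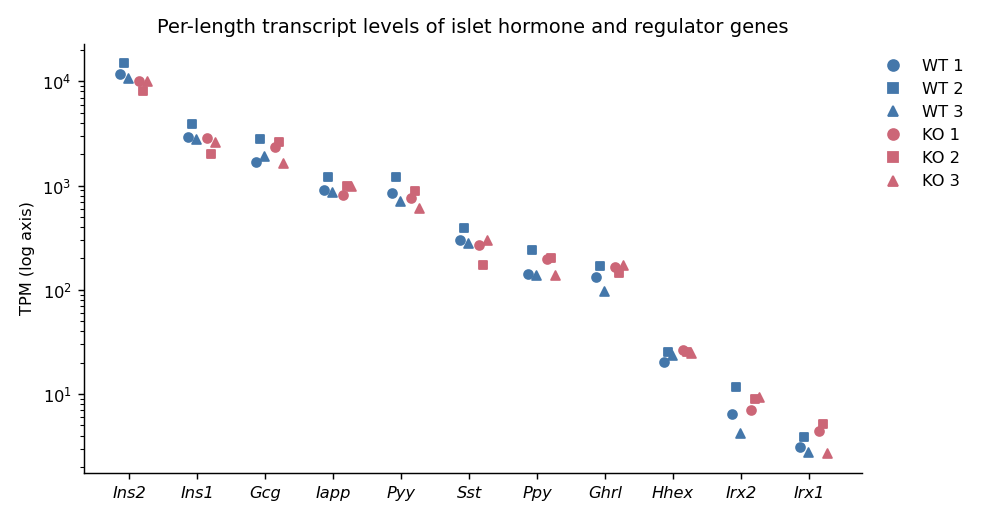
TPM (log axis) of the insulin genes, Iapp and the 8 genes in each of the 6 libraries, with WT in blue, KO in red and marker shapes for libraries 1 to 3. Gcg sits between 1640 and 2776 TPM, and no value of the 3 regulators is above 26.5 TPM.

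Neighbours in this order were not always apart. The ranges of Ins1 and Gcg overlapped, as did those of Iapp and Pyy, of Sst and Ppy, of Ppy and Ghrl, and of Irx2 and Irx1. Ins1 was nevertheless above Gcg in 5 of 6 libraries, Sst above Ppy in 5 of 6, and Ppy above Ghrl in 5 of 6. KO 2 was the library in which Gcg (2601 TPM) exceeded Ins1 (2006 TPM) and Ppy (202 TPM) exceeded Sst (171 TPM), and KO 3 the one in which Ghrl (172 TPM) exceeded Ppy (139 TPM).

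The comparison of KO with WT asks whether the non-beta hormones of the newborn islet differ when miR-216a is missing. By edgeR's quasi-likelihood test with Benjamini-Hochberg adjustment over all 15805 genes, 0 of the 8 genes passed an adjusted p of 0.05, and their adjusted p ran from 0.306 to 0.998. The background by edgeR was 0% of all genes called. DESeq2 called 0 of the 8 where it called 3.13% of the 13945 genes it gave an adjusted p, and limma-voom called 0 of the 8 where it called 0.0127% of all genes. At p under 0.05 without adjustment, 1 of the 8 genes was lower in KO and 0 were higher, against 7% of all genes lower and 5.62% higher. For 1 of the 8 genes all KO libraries were lower than all WT libraries, beside 10.3% of all genes, and for 0 of the 8 all were higher, beside 9.07% of all genes. The gene is Sst in both counts. The median log2 fold change of the 8 was 0.05, beside 0.007 for all genes tested.

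**Figure D2:**
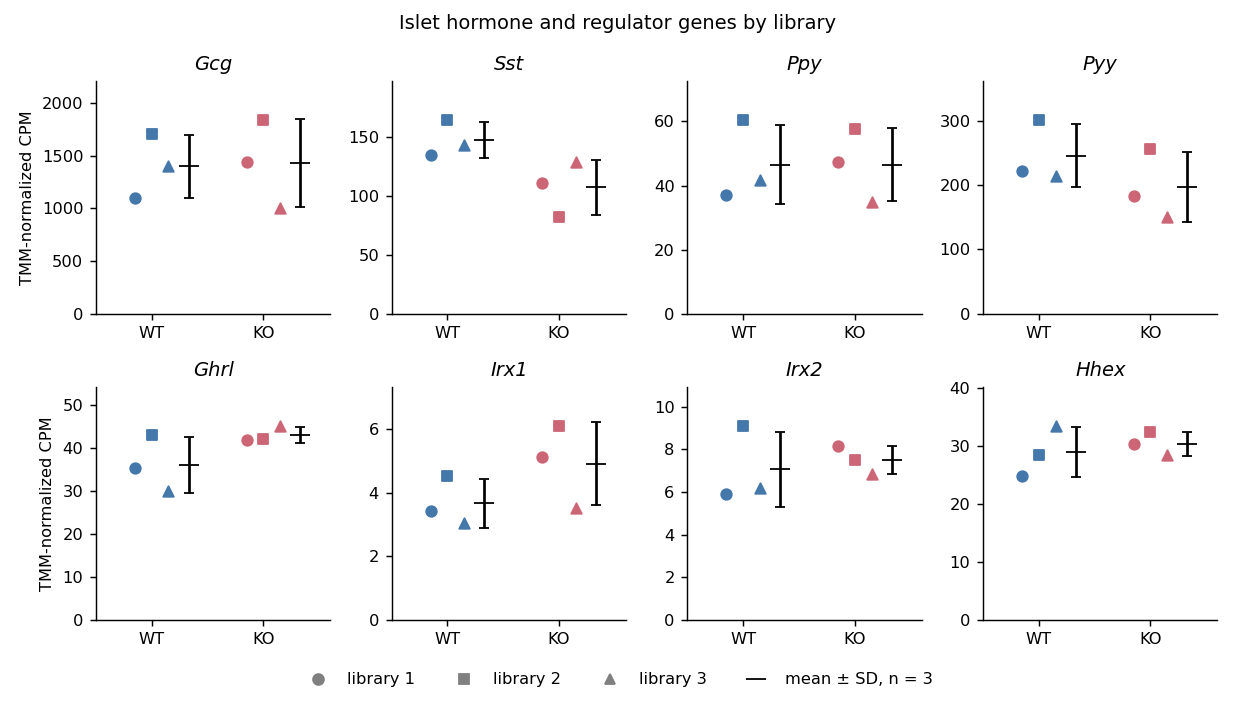
TMM-normalized CPM of the 8 genes, 1 panel per gene, with points for single libraries and a bar for the mean ± SD of 3. The 2 groups are apart only in the Sst panel, where KO lies between 82.5 and 129 CPM and WT between 135 and 165 CPM.

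Sst, the delta cell hormone, lies on chromosome 16 at 23889573 to 23890958 on the minus strand (GRCm38, GENCODE M21), and 1 protein-coding transcript of it was quantified. It stood at 135, 165 and 143 CPM in WT 1 to 3 and at 111, 82.5 and 129 CPM in KO 1 to 3. The highest KO library came close to the lowest WT library, while KO 2 lay far below the rest. The means were 148 ± 15.5 CPM in WT and 107 ± 23.3 CPM in KO (SD, n = 3), a log2 fold change of -0.46 ± 0.16 (SE; 95% interval -0.83 to -0.085). The adjusted p was 0.306 by edgeR's quasi-likelihood test, so the difference did not pass. Without KO 2 the log2 fold change was -0.30, and without KO 3 it was -0.61.

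The scale matters for whether the Sst groups are apart. In TPM the groups overlapped, with 304, 395.5 and 282 in WT and 270, 171 and 303 in KO. Set against the summed reads of 7 general endocrine granule genes (Chga, Chgb, Scg2, Scg3, Pcsk1n, Cpe and Scg5), Sst was even in WT, at 96.4, 92.7 and 94.1 reads per 1000 granule reads. KO gave 80.3, 49.9 and 79.7, all lower (94.4 ± 1.85 against 69.9 ± 17.4, exact permutation p = 0.1, two-sided). With 3 libraries against 3, 0.1 is the smallest two-sided p that an exact permutation test can give. The granule genes themselves summed to 1567 ± 194 CPM in WT and 1551 ± 147 CPM in KO (exact permutation p = 0.9).

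Sst also carries a seed match for the missing microRNA, which is why the sequences are shown. The mature strands of mouse miR-216a come from chr11:28757018-28757039 and chr11:28757058-28757079, plus strand (RefSeq, GRCm38.p6). They are written with the seed, bases 2 to 8, in capitals.
miR-216a-5p: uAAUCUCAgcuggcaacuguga
miR-216a-3p: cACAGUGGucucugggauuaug
MicroRNAs usually lower the transcripts whose 3' UTR pairs with the seed, so the loss of one would usually raise them. In the longest annotated 3' UTR of each gene (GENCODE M21), the site types searched for were the 8mer (a match to bases 2 to 8 followed by A), the 7mer-m8 (that match alone) and the 7mer-A1 (a match to bases 2 to 7 followed by A).

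Of the 8 genes, 2 held a site for the 5p strand, Sst and Gcg, where 16.1% of 21153 genes held one. Irx2 alone of the 8 held a site for the 3p strand, which 23.9% of genes held. The sites are written 5' to 3' on the transcript strand with the matching bases in capitals.
Sst 8mer for 5p: aattatggTGAGATTAtgaagagc
Gcg 7mer-A1 for 5p: ccccccccGAGATTAtttttctgt
Irx2 8mer for 3p: attttgtgCCACTGTAtaagagga
They lie at chr16:23889575-23889598 (minus), chr2:62474711-62474734 (minus) and chr13:72633368-72633391 (plus). The Sst match begins at base 139 of a 3' UTR of 156 bases, the Gcg match at base 252 of 448, and the Irx2 match at base 136 of 958. Beside the log2 fold change of -0.46 ± 0.16 for Sst, those of Gcg and Irx2 were 0.03 ± 0.24 and 0.08 ± 0.20 (SE). A match is a description of the letters, and binding was not measured. Any part of the sites in these fold changes was not tested.

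Gcg, which encodes proglucagon, lies on chromosome 2 at 62474530 to 62483650 on the minus strand. It had the highest level of the 8 genes. WT 1 to 3 stood at 1101, 1701 and 1398 CPM, and KO 1 to 3 at 1441, 1840 and 1005 CPM. The highest and the lowest library were thus both KO. The means were 1400 ± 300.2 CPM in WT and 1429 ± 418 CPM in KO (SD, n = 3), with a 95% interval of the fold change from 0.698 to 1.49 and an adjusted p of 0.974 by edgeR's quasi-likelihood test. Counting error was 0.569% at this depth, so nearly all of the spread lay between libraries. The estimate changed sign with the libraries used: the log2 fold change was -0.20 without KO 2, 0.23 without KO 3 and -0.34 without WT 1 and KO 2, the pair rich in erythroid RNA (adjusted p = 0.631 by edgeR). Transcript Gcg-201 gave 82.7 to 84.5% of Gcg TPM in every library.

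Ppy and Pyy are neighbours in the genome. Ppy lies on chromosome 11 at 102099930 to 102101319 and Pyy at 102106676 to 102107832, both on the minus strand, with 5356 bases and no annotated gene between them. Ppy stood at 37.1, 60.5 and 41.9 CPM in WT and at 47.2, 57.6 and 34.7 CPM in KO. Its group means were equal to 3 digits, 46.5 ± 12.4 and 46.5 ± 11.5 CPM (SD, n = 3; fold change 0.999, 95% interval 0.696 to 1.43). The ranges overlapped over most of their length.

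Pyy stood at 223, 302 and 214 CPM in WT and at 184, 257 and 151 CPM in KO. KO 2 lay above WT 1 and WT 3, so the groups overlapped, while KO 1 and KO 3 lay below every WT library. The means were 246 ± 48.4 and 197 ± 54.2 CPM (SD, n = 3), a log2 fold change of -0.32 ± 0.21 (SE; 95% interval -0.80 to 0.16, adjusted p = 0.580 by edgeR's quasi-likelihood test). WT 2 and KO 2 were the highest of their groups for both Ppy and Pyy. The main coding transcript Pyy-201 gave 58.1 to 64.2% of Pyy TPM, and the retained-intron transcript Pyy-203 gave 23.2 to 31.2%. The 2 coding transcripts of Ppy split its TPM between them, with Ppy-201 at 47.8 to 63.0%.

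Ghrl lies on chromosome 6 at 113716119 to 113719880 on the minus strand. On the plus strand, Gm26982 (113714971 to 113716121, annotated as antisense) and Gm44033 (113718584 to 113719278, not annotated as antisense) overlap it. Gm26982 reaches only a few bases into it. The library kit keeps strand, but the sources used here do not say how the quantification used it. Ghrl stood at 35.3, 43.0 and 30.1 CPM in WT and at 41.8, 42.2 and 45.2 CPM in KO. The 3 KO libraries lay close together near the top of the WT range, and WT 2 fell among them. The means were 36.1 ± 6.50 and 43.1 ± 1.82 CPM (SD, n = 3), a log2 fold change of 0.25 ± 0.13 (SE; 95% interval -0.06 to 0.56, adjusted p = 0.493 by edgeR's quasi-likelihood test).

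Set against the 7 granule genes, the Ghrl groups no longer overlapped, though KO 2 and WT 1 nearly met. WT gave 25.2, 24.2 and 19.8 reads per 1000 granule reads and KO gave 30.3, 25.5 and 27.9 (23.1 ± 2.90 against 27.9 ± 2.37, exact permutation p = 0.1). The stomach is the main source of ghrelin in the adult, so its markers are given beside this. Of 8 stomach markers 1 was tested, Atp4a, at 3.13 ± 0.226 CPM in WT and 2.60 ± 0.894 CPM in KO. Below the filter, Gkn1 and Gkn2 had 0 reads, Muc5ac and Tff1 0 or 1 read, Gif 0 to 4, Atp4b 0 to 5 and Pgc 2 to 13 reads per library. The 8 together summed to 3.47 to 3.89 CPM in WT and 1.93 to 3.96 CPM in KO.

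The 10 intestinal markers summed to 22.9 to 29.9 CPM in WT and 35.1 to 39.1 CPM in KO, but they did not all go one way. Lgals4, a lectin of gut epithelium, was at 8.55 ± 0.737 CPM in WT and 19.3 ± 3.90 CPM in KO. It alone of the 5 markers tested had every KO library above every WT library, beside 9.07% of all genes. The difference in the sum largely repeats Lgals4. Vil1, of the microvilli, had the lower mean in KO (11.2 ± 1.13 against 8.996 ± 1.173 CPM), as did Slc5a1, a glucose transporter (2.86 ± 0.245 against 2.21 ± 0.983 CPM). The defining genes Sis and Cdx2 had 0 reads and 0 or 1 read, while Fabp2 had 37 reads in KO 3 and 0 to 6 in the others. Since gut cells also make several of the 5 hormones, the part of the intestinal marker level in the hormone results was not tested.

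**Figure D3:**
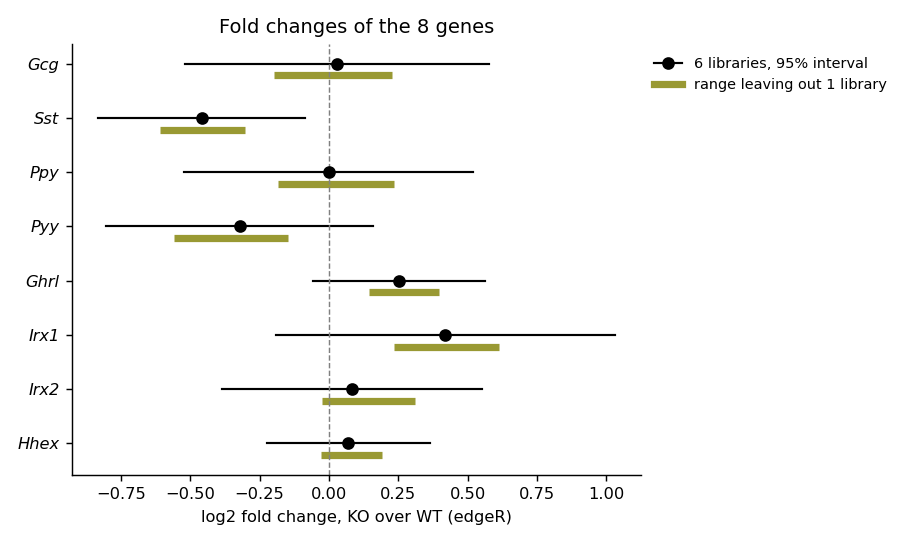
Log2 fold change of KO over WT for each of the 8 genes (points) with its 95% interval (thin lines), and the range of the estimate when 1 of the 6 libraries is left out (thick bars). The interval excludes 0 for Sst only, before any adjustment, and the thick bars of Gcg, Ppy, Irx2 and Hhex cross 0.

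Among the regulators, the 2 Iroquois genes lie on chromosome 13, Irx1 at 71957921 to 71963723 (minus) and Irx2 at 72628820 to 72634198 (plus), 665096 bases apart. Irx1 rested on 64 to 120 reads per library and stood at 3.41, 4.53 and 3.04 CPM in WT and 5.13, 6.10 and 3.51 CPM in KO. KO 1 and KO 2 lay above every WT library and KO 3 between WT 1 and WT 2. Its means, 3.66 ± 0.776 and 4.91 ± 1.31 CPM (SD, n = 3), gave the widest interval of the 8 genes, with a log2 fold change of 0.42 ± 0.27 (SE; 95% interval -0.19 to 1.03, adjusted p = 0.569 by edgeR's quasi-likelihood test).

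Irx2 stood at 5.92, 9.10 and 6.17 CPM in WT and 8.15, 7.52 and 6.84 CPM in KO. All 3 KO libraries fell inside the WT range. The means were 7.06 ± 1.77 and 7.50 ± 0.654 CPM (SD, n = 3; adjusted p = 0.906 by edgeR's quasi-likelihood test). Its TPM was split unevenly between transcripts, with the longest transcript giving 36.1 to 75.3% of Irx2 TPM and a shorter coding one 0 to 47.2%. That shorter transcript rested on only 0 to 24.2 estimated reads per library. Of the other members of the family, Irx3 was tested (0.575 ± 0.169 CPM in WT, 0.708 ± 0.422 CPM in KO), and Irx4, Irx5 and Irx6 had 0 or 1 read per library.

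Hhex lies on chromosome 19 at 37434810 to 37440731 on the plus strand. It stood at 24.8, 28.4 and 33.4 CPM in WT and at 30.2, 32.4 and 28.4 CPM in KO. The KO libraries again lay within the range of WT, with means of 28.9 ± 4.31 and 30.3 ± 2.04 CPM (SD, n = 3). Its interval was the narrowest of the 8 on the log2 scale, and ran from 0.857 to 1.29 as a fold change (adjusted p = 0.865 by edgeR's quasi-likelihood test). Hhex and Sst, both on the delta cell list, had estimates on opposite sides of 1, but the interval of Hhex included 1. Without WT 1 the log2 fold change of Hhex turned to -0.027. Their ratio by TPM was 0.0667, 0.0636 and 0.0848 in WT and 0.0979, 0.146 and 0.0825 in KO. KO 3 fell just under WT 3, and the groups overlapped (exact permutation p = 0.2, adjusted p = 0.475).

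Ratios within a library need no scaling between libraries. There were 19 ratios compared, the 15 pairs among the 5 hormones and insulin (Ins1 and Ins2 summed) and 4 with regulators, all from TPM, with p adjusted over the 19. Adjusted p ran from 0.475 to 1, so 0 ratios passed. The groups did not overlap for 4 ratios, or 21.1%, beside 19.4% of all genes tested whose CPM did not overlap, so the share is near the background. Of the 4 ratios 3 share Ghrl.

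Ghrl over insulin was 0.00905, 0.00892 and 0.00713 in WT and 0.0126, 0.0144 and 0.0135 in KO. The lowest KO library lay clearly above the highest WT library, and the mean log2 ratio was higher by 0.70 (exact permutation p = 0.1, adjusted p = 0.475). The insulin genes also had different means. Ins2 stood at 3027 ± 301 CPM in WT and 2206 ± 87.2 CPM in KO, and Ins1 at 2245 ± 253 and 1700 ± 169 CPM, without overlap (adjusted p = 0.235 and 0.280 by edgeR's quasi-likelihood test). As a share of the TPM of the 5 hormones and insulin together, Ghrl made up 0.679 ± 0.0895% in WT and 1.04 ± 0.0604% in KO (exact permutation p = 0.1).

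Sst over Ghrl was 2.27, 2.36 and 2.92 in WT and 1.64, 1.18 and 1.76 in KO, a difference in mean log2 ratio of -0.73 (exact permutation p = 0.1, adjusted p = 0.475). Pyy over Ghrl was 6.32, 7.16 and 7.43 in WT and 4.64, 6.09 and 3.57 in KO, a difference of -0.58 with the same p. In both ratios the KO libraries were all lower, and KO 2 and WT 1 came close to each other for Pyy over Ghrl. Ppy over Pyy, the pair of neighbouring genes, was 0.168, 0.203 and 0.195 in WT and 0.257, 0.229 and 0.226 in KO, a difference of 0.34 (exact permutation p = 0.1, adjusted p = 0.475). All 4 ratios were apart in the same direction when taken from reads in place of TPM. By reads alone 2 more were apart, both of which overlapped by TPM. Beside these counts, 19.4% of all genes tested had CPM that did not overlap. Gcg over Pyy was 4.95, 5.63 and 6.52 in WT and 7.83, 7.17 and 6.66 in KO (exact permutation p = 0.1). Irx1 over Gcg was 0.00310, 0.00266 and 0.00217 in WT and 0.00356, 0.00331 and 0.00349 in KO, with the same p.

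**Figure D4:**
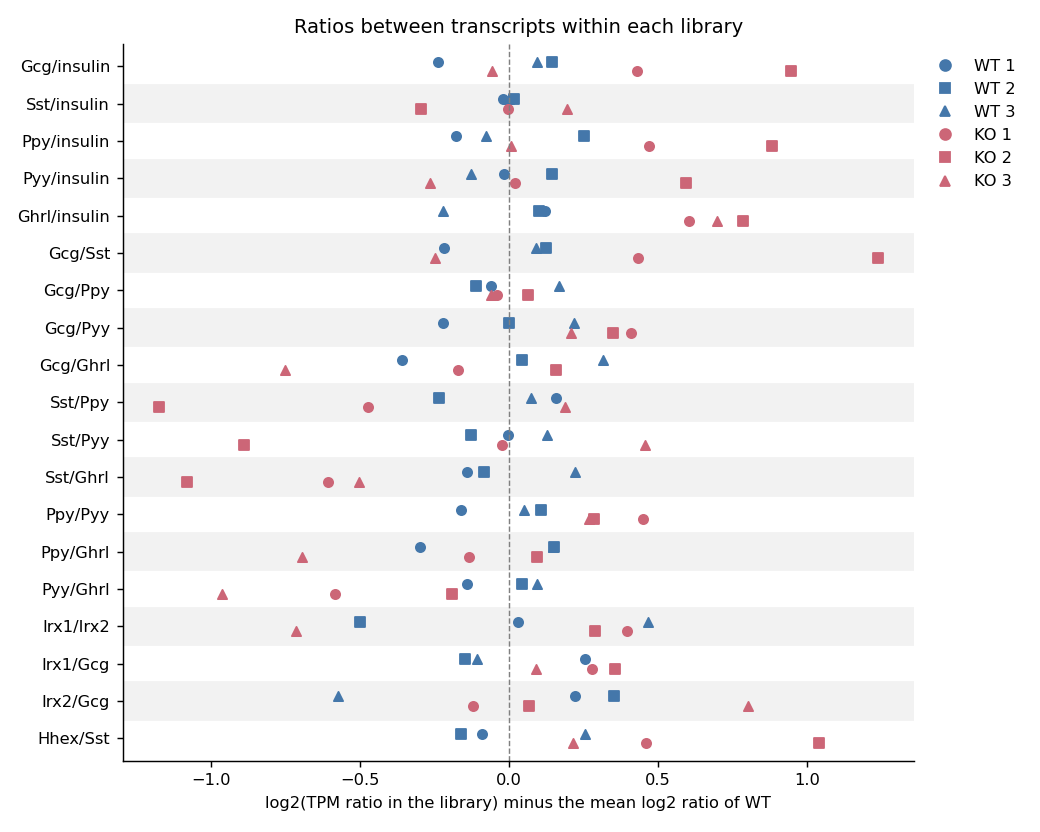
Each library's log2 TPM ratio for the 19 pairs, minus the mean log2 ratio of WT, with WT in blue, KO in red and marker shapes for libraries 1 to 3. KO and WT are apart for Ghrl/insulin, Sst/Ghrl, Ppy/Pyy and Pyy/Ghrl, and KO 2 lies far from the rest in most pairs with Sst.

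Gcg over Ppy was the steadiest pair among the hormones, at 11.8, 11.4 and 13.8 in WT and 11.98, 12.9 and 11.8 in KO (difference in mean log2 ratio -0.01, exact permutation p = 0.9). The alpha and gamma cell hormones thus kept close to the same proportion across libraries in which Gcg CPM varied 1.83 times and Ppy CPM 1.74 times. Gcg over Sst was the least steady, at 5.53, 7.02 and 6.86 in WT and 8.69, 15.2 and 5.41 in KO. Its highest and lowest values were both in KO (exact permutation p = 0.5). Sst over insulin was 0.0205, 0.0211 and 0.0208 in WT and 0.0208, 0.0170 and 0.0238 in KO, so that WT hardly varied and KO spread to both sides.

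Glucagon made up 57.7 ± 3.47% of the TPM of the 5 non-beta hormones in WT and 61.6 ± 4.02% in KO, with overlap (exact permutation p = 0.3). Peptide YY made up 25.0 ± 2.30% and 21.3 ± 0.825%, and each KO library was below each WT library (27.3, 25.1 and 22.7% against 20.4, 22.1 and 21.4%, exact permutation p = 0.1). The total of the 5 hormones was 3686 ± 951 TPM in WT and 3538 ± 595 TPM in KO (exact permutation p = 0.8).

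Of the alpha cell genes, 18 of 18 were tested and 0 passed in either direction, with a median log2 fold change of 0.10 beside 0.007 for all genes. At p under 0.05 without adjustment 2 were higher and 1 was lower, beside 5.62% and 7% of all genes. Of the 18 fold changes 11 were above 1 and 7 below. Gc, the vitamin D binding protein made by alpha cells and liver, stood at 84.6, 74.8 and 109 CPM in WT and 50.2, 31.1 and 34.9 CPM in KO (log2 fold change -1.21 ± 0.20 SE, adjusted p = 0.205 by edgeR's quasi-likelihood test). Slc7a2, a transporter of basic amino acids, stood at 76.7 ± 5.44 CPM in WT and 113 ± 22.8 CPM in KO, the opposite direction (adjusted p = 0.227 by edgeR). Liver markers summed to 501 CPM in WT 1 and to 13.7 to 38.0 CPM in the other libraries, and their part in the Gc values was not tested.

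Of 14 delta cell genes 13 were tested and 0 passed. At p under 0.05 without adjustment 2 were lower and 0 were higher, beside 7% and 5.62% of all genes. The median log2 fold change was 0.08. Without Sst and Hhex it was 0.15, over 11 genes. Ptprz1, a receptor tyrosine phosphatase, stood at 7.61 ± 0.668 CPM in WT and 5.16 ± 1.26 CPM in KO (adjusted p = 0.330 by edgeR's quasi-likelihood test). Sst and Ptprz1 were the 2 delta cell genes whose KO libraries were all lower, beside 10.3% of all genes. Rbp4, the retinol carrier, stood at 56.1 ± 7.39 and 63.3 ± 4.22 CPM.

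Of 10 gamma and epsilon cell genes 9 were tested and 0 passed, with a median log2 fold change of 0.18. Aqp3, a water and glycerol channel, stood at 1.18 ± 0.123 CPM in WT and 2.76 ± 1.80 CPM in KO, with KO 2 the highest at 4.78 CPM (adjusted p = 0.336 by edgeR). Etv1, a transcription factor, stood at 23.1 ± 2.65 and 26.7 ± 2.15 CPM. Mboat4, the enzyme that acylates ghrelin, had 3 to 9 reads per library and was not tested.

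Receptors of islet hormones, insulin included, were mostly scarce in whole pancreas. Of 16 listed, 9 were tested and 0 passed, with 5 means higher in KO and 4 lower. The incretin receptor gene Glp1r was lower in KO without overlap, at 37.0 ± 2.67 CPM in WT and 26.9 ± 6.31 CPM in KO (adjusted p = 0.316 by edgeR's quasi-likelihood test). The insulin receptor gene Insr had 50.4 ± 4.03 CPM in WT and 66.3 ± 2.20 CPM in KO, and Npy1r, a receptor of the neuropeptide Y family, had 1.25 ± 0.104 and 2.43 ± 0.782 CPM, both without overlap (adjusted p = 0.206 and 0.268 by edgeR's quasi-likelihood test). The glucagon receptor gene Gcgr was at 4.84 ± 0.725 and 4.07 ± 0.493 CPM, and the ghrelin receptor gene Ghsr at 0.719 ± 0.384 and 0.713 ± 0.211 CPM. Npy4r, which encodes the receptor of pancreatic polypeptide, had 0 or 1 read per library.

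Of 14 genes for prohormone processing and granules 13 were tested, 0 passed and the median log2 fold change was -0.01. Pcsk1, the convertase that cuts proinsulin, stood at 65.4 ± 5.53 CPM in WT and 51.5 ± 6.39 CPM in KO, with every KO library lower (adjusted p = 0.290 by edgeR's quasi-likelihood test). Pcsk2, the convertase that cuts proglucagon, stood at 253 ± 48.2 and 300 ± 51.1 CPM with overlap, and Pcsk1n, a protein inhibitor of Pcsk1, at 72.6 ± 15.3 and 54.0 ± 7.42 CPM. Of 22 endocrine transcription factors 20 were tested and 0 passed, with a median of 0.16. Mafa, of mature beta cells, stood at 18.3 ± 2.39 and 10.9 ± 1.80 CPM (adjusted p = 0.205), and Rfx3, which acts in islet development, at 17.5 ± 3.08 and 23.3 ± 2.75 CPM (adjusted p = 0.334).

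Beside the non-beta genes, all 13 beta cell genes were tested and 0 passed. At p under 0.05 without adjustment 5 were lower in KO and 0 were higher, beside 7% and 5.62% of all genes. The 5 were Ins1, Ins2, Mafa, the incretin receptor gene Glp1r and G6pc2, a glucose-6-phosphatase of islets (65.1 ± 3.36 CPM in WT, 37.6 ± 9.79 CPM in KO, adjusted p = 0.206 by edgeR). The list's median log2 fold change was -0.12. Its summed level was 5755 to 6897 CPM in WT and 4698 to 4864 CPM in KO. Most of that sum was insulin, with means of 3027 and 2206 CPM for Ins2 and 2245 and 1700 CPM for Ins1. The sum thus largely repeats the insulin values. Of the 13 fold changes 5 were above 1 and 8 below. The mean log2 ratio of Sst to insulin differed by -0.03 between the groups (exact permutation p = 0.8).

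Most other peptide hormones had few reads. Cck, Gip, Sct, Nts and Insl5 had 0 to 14 reads per library, and 5 of 11 genes on that list were tested, with 0 passing. Ductal markers summed to 657 to 784.6 CPM in WT and 634 to 731 CPM in KO. Endothelial markers summed to 640 to 735 CPM and 734 to 774 CPM. Their part in the results on hormones was not tested.

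The genes whose levels followed each hormone most closely were searched for among 11758 genes with a mean of at least 5 CPM. The measure was Pearson's r of log2 CPM over the 6 libraries, given as a description, since the points share library and scaling. For Gcg the 3 nearest were Neurl1a (r = 0.978), Ppy (0.963) and Sepsecs (0.963), and for Ppy they were Hdac6 (0.980), Gcg (0.963) and Cep170 (0.960). Gcg and Ppy were thus among each other's 3 nearest. For Sst they were Btbd8 (0.994), Rab31 (0.991) and Dmac1 (0.989), and for Pyy Ebp (0.974), Gng4 (0.969) and Kcnk16 (0.968), the last an islet potassium channel gene. For Ghrl they were Gprasp2 (0.994), Nnat (0.986) and Gm17131 (0.980). For Irx2 they were Fchsd1, Maml2 and Cobl (0.962 to 0.966), and for Hhex Gprin3, Gpat4 and Nedd9 (0.978 to 0.985). Irx1, at under 5 CPM, was not searched.

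Between the hormones themselves the closeness varied. Gcg and Pyy had r = 0.761 and Ppy and Pyy r = 0.797, while Sst was weakly or negatively related to them (r = -0.321 with Gcg, -0.211 with Ppy and 0.105 with Pyy). Ghrl likewise stood apart, at 0.104 with Gcg and -0.097 with Pyy.

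Stretches from before the start sites of Gcg, Ppy and Sst are shown as a description, with that of Pyy, the neighbour of Ppy (RefSeq, GRCm38.p6, all minus strand, written 5' to 3' towards the start). Any link between their letters and the levels of these genes was not tested. Of the 8 genes 7 are in the RefSeq promoter table, and of the 2 starts of Pyy there the one farther upstream was taken. The 250 bases before each start were searched on both strands for TGACGTCA, the palindromic cAMP response element, and for TATAA, the core of the TATA box, and matches are in capitals. The stretches of Gcg, Ppy and Pyy run up to the start. For Sst only the 30 bases from 59 to 30 before the start are given, because they lie within the gene as GENCODE M21 draws it, 114 bases longer at this end than in RefSeq.
Sst (chr16:23890874-23890903): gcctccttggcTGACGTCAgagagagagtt
Gcg (chr2:62483654-62483773): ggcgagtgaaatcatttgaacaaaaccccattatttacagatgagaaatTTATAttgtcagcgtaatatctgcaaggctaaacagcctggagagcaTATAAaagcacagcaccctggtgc
Ppy (chr11:102101320-102101439): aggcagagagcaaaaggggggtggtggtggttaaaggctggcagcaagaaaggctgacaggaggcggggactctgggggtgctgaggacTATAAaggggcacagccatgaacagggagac
Pyy (chr11:102107833-102107952): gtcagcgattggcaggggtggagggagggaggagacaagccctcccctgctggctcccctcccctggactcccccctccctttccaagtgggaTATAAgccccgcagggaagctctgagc
TGACGTCA stood 48 to 41 bases before the start of Sst and in none of the other 6 searched, and 1.55% of 32851 promoters held it. TATAA stood 24 to 20 bases before the start of Gcg, 31 to 27 before Ppy and 27 to 23 before Pyy. In Gcg it also stood on the opposite strand, 71 to 67 bases before the start. Of all promoters 22.8% held TATAA in the 250 bases and 6.36% in the last 50. These letters were not in the windows searched for Ghrl, Irx2 and Hhex.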

How the data were processed

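Members and gene lists were chosen with earlier results of these data known. The submitters' processing notes name bcl2fastq, Salmon 0.13.1, DESeq2 1.24.0 and the build mm10. The authors deposited, per library, estimated counts of each transcript, which are not normalized, and TPM, scaled by length and depth. A gene table of 17324 genes that the authors deposited for the whole series holds a scaled signal, not counts, and entered 1 alternative. The sources used here do not name the transcript set quantified. Of 116248 transcripts, 115995 matched GENCODE M21 by versioned ID, and the rest (0.0341 to 0.0458% of reads) were left out. Replicate numbers follow sample order and pair nothing.

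Estimated counts were summed per gene (pandas 2.3.3, Python 3.11.15), rounded, and tested with edgeR 4.0.16 (R 4.3.3), TMM scaling, filterByExpr and glmQLFTest, with a threshold of 0.05 after Benjamini-Hochberg adjustment. TMM factors were 0.92 to 1.09. The common biological coefficient of variation was 18.4%. SE is the absolute log2 fold change divided by the root of F. Ratios, shares and granule-scaled values used exact permutation tests over 20 splits (SciPy 1.17.1). Fits were tested on simulated data. Alternatives were other size factors, other filters, DESeq2 1.42.0, limma-voom 3.58.1, a length offset, TMM without 32 digestive enzyme genes, limma on log2(value + 1) of the authors' table, fits without single libraries or the erythroid-rich pair, and read ratios. The rule for names takes all 8 genes and the 2 genes with the smallest p of each other list, and not all of these are described. Some genes of the lists are not reported here. Gcgr, Ghsr, Pcsk2, Iapp, Glp1r, Slc5a1 and genes at or near 0 reads were named outside that rule, after their values were seen.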

Additional observations from a re-analysis of the deposited data

How the results depend on the processing

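Of the 8 genes, 0 passed under any alternative run, with adjusted p from 0.127 (Sst, DESeq2) to 0.999. Direction held under all 17 alternatives for Sst (-0.609 to -0.304 on the log2 scale), Pyy (-0.627 to -0.149), Ghrl (0.143 to 0.397) and Irx1 (0.183 to 0.614). The log2 fold change of Ppy turned to 0.039 with the length offset, 0.037 in the authors' scaled table and 0.014 per granule read. Without WT 1 and KO 2, Gcg turned to -0.343, Irx2 to -0.032 and Hhex to -0.081. Leaving out 1 library at a time gave -0.197 to 0.229 for Gcg, -0.185 to 0.235 for Ppy, -0.026 to 0.310 for Irx2 and -0.027 to 0.193 for Hhex. Among log2 ratios it gave -0.148 to 0.096 for Sst/insulin, -0.122 to 0.308 for Pyy/insulin, -0.065 to 0.073 for Gcg/Ppy, -0.456 to 0.217 for Sst/Pyy, -0.258 to 0.343 for Irx1/Irx2 and -0.037 to 0.435 for Irx2/Gcg. The other 13 ratios kept their direction. From reads, Gcg/Ppy turned to 0.006 and Irx1/Irx2 to 0.297, and the difference in the mean linear Irx1/Irx2 ratio was 0.00576. The cause of these turns was not tested.

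Over all genes edgeR called 0 in each direction, with 1 lower when no filter was used, 1 higher and 1 lower without WT 1 and KO 2, and 0 to 87 higher and 0 to 275 lower when 1 library was left out, the highest without KO 1. DESeq2 called 132 higher and 304 lower, and limma-voom 1 in each direction. No paired analysis was possible because the replicate numbers follow sample order only. At 64 to 227 reads per library, depth limits Irx1 and Irx2 most.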
